A study of Mus musculus with 6 samples.

Results

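Gm26917 and Gm42418 are neighbouring mouse features that GENCODE M21 lists as long intergenic noncoding RNAs, although they lie over a copy of the ribosomal DNA on chromosome 17. They were taken by symbol, are 2 of the 55450 genes in the deposited tables, and both passed the filter on low counts. Their reads are given beside those that mapped to several places in the genome, of which rRNA is an unmeasured part. The libraries were made from whole mouse brain, 3 from wild-type animals (WT1 to WT3) and 3 from animals without TRMT1L (KO1 to KO3), a protein related to the tRNA methyltransferase TRMT1. The labels describe biological triplicates and state no allele, strain, sex, age, pooling or sequencing batch. Total RNA had been depleted of molecules under 200 bp and sequenced after Illumina TruSeq preparation for total RNA. No step is named there that removes ribosomal RNA.

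In mammals RNA polymerase I transcribes a single long precursor from tandem ribosomal DNA repeats in the nucleolus. The precursor begins with an external transcribed spacer, followed by 18S rRNA, an internal spacer, 5.8S rRNA, a further internal spacer and 28S rRNA. The spacers are cut out and degraded soon after transcription, so reads in them come from precursor or its fragments, while 18S and 28S reads can come from finished ribosomes as well. Because the repeats are nearly identical, reads from mature rRNA often map to several places and are then not assigned to any gene.

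The position of each feature decides which part of the precursor its counts can hold. Gm26917 (ENSMUSG00000097971.3) occupies 3329 bases, chr17:39843013-39846341 on the plus strand of GRCm38. Its longer transcript is a single exon over that whole span. Gm42418 (ENSMUSG00000098178.1) is a single exon of 1831 bases at chr17:39846958-39848788 on the same strand, 616 bases further on. RefSeq places Rn18s-rs5, a related sequence of 18S rRNA that also carries the name Gm42418, at chr17:39846354-39848202. Gm26917 therefore ends 12 bases before this 18S copy and holds none of it, the position that the external transcribed spacer takes in the precursor. Gm42418 starts inside the copy, holds its last 1245 bases, and runs on for another 586 bases, where the precursor has its first internal spacer. The name "ribosomal RNA feature" thus fits Gm42418 in part by position, while Gm26917 lies wholly outside the annotated 18S sequence.

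The stretches below, all on the plus strand of GRCm38 and read from the GENCODE M21 transcripts, show these borders. Capitals mark bases inside RefSeq's 18S copy, and lower case marks bases outside it. The 18S transcript in GENCODE M21 matched Gm42418 in reverse complement over 1244 bases at 100% identity. Its borders therefore differ slightly from those marked here. The start of Gm26917 is chr17:39843013-39843112 and its end chr17:39846242-39846341. The 18S copy is shown from chr17:39846353-39846432, the start of Gm42418 from chr17:39846958-39847037, and the exit of Gm42418 from the copy at chr17:39848123-39848322.
Gm26917 start: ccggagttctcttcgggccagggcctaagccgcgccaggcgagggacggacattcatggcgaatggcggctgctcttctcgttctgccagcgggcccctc
Gm26917 end: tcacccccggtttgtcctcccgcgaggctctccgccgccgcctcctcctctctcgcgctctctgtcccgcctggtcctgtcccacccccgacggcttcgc
18S copy start: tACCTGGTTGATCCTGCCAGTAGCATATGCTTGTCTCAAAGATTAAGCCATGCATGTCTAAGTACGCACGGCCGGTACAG
Gm42418 start: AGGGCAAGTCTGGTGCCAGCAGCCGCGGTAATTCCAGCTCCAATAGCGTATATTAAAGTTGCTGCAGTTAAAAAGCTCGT
Gm42418 leaving the 18S copy: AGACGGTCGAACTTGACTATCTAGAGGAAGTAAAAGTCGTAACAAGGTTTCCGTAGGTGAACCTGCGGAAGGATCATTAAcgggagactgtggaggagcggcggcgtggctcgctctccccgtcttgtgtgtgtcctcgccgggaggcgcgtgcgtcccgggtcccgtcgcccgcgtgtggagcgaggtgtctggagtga

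The base composition followed the same borders. Gm26917 had a GC content of 69.1%, above 99.9% of the 21237 genes tested, whose median was 48.5%. Only 8.26% of its bases were A. Within Gm42418 the GC content was 55.0% inside the 18S copy and 71.2% in the 586 bases after it, where A made up 6.49%. The GC content of Gm42418 as a whole was 60.2%, above 96.4% of the genes tested. Aligned against all 141767 GENCODE M21 transcripts, neither feature matched a gene outside this locus over at least 100 bases at 90% identity or more, and the features did not match each other. Copies of the ribosomal repeat outside annotated transcripts were not searched, since no genome sequence was used here.

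Gm26917 was among the most abundant features of these libraries. Its level was 5508, 5115 and 7151 CPM (counts scaled to library size with TMM factors) in WT1 to WT3, and 7978, 6542 and 9052 CPM in KO1 to KO3. The highest level was in KO3 and the lowest in WT2. WT3 lay above KO2, so the groups overlapped. By mean level Gm26917 was 4th of all genes in CPM and 7th in CPM per kilobase of exon. It alone took 17.2% of the CPM of all genes of type lincRNA, the 2nd highest of the 947 that passed the filter.

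Gm42418 was less abundant. Its level was 569, 406 and 892 CPM in WT1 to WT3 and 911, 706 and 1127 CPM in KO1 to KO3. The 6 libraries stood in the same order as for Gm26917, from KO3 down to WT2, and the groups overlapped in the same way. Per kilobase of exon, its level lay between 222 and 615 CPM, against 1536 to 2719 CPM for Gm26917. The ratio of the counts of Gm42418 to those of Gm26917 was 10.3%, 7.93% and 12.5% in WT1 to WT3 and 11.4%, 10.8% and 12.4% in KO1 to KO3. It was lowest in WT2, where both features were lowest, and was otherwise similar in WT and KO.

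**Figure D1:**
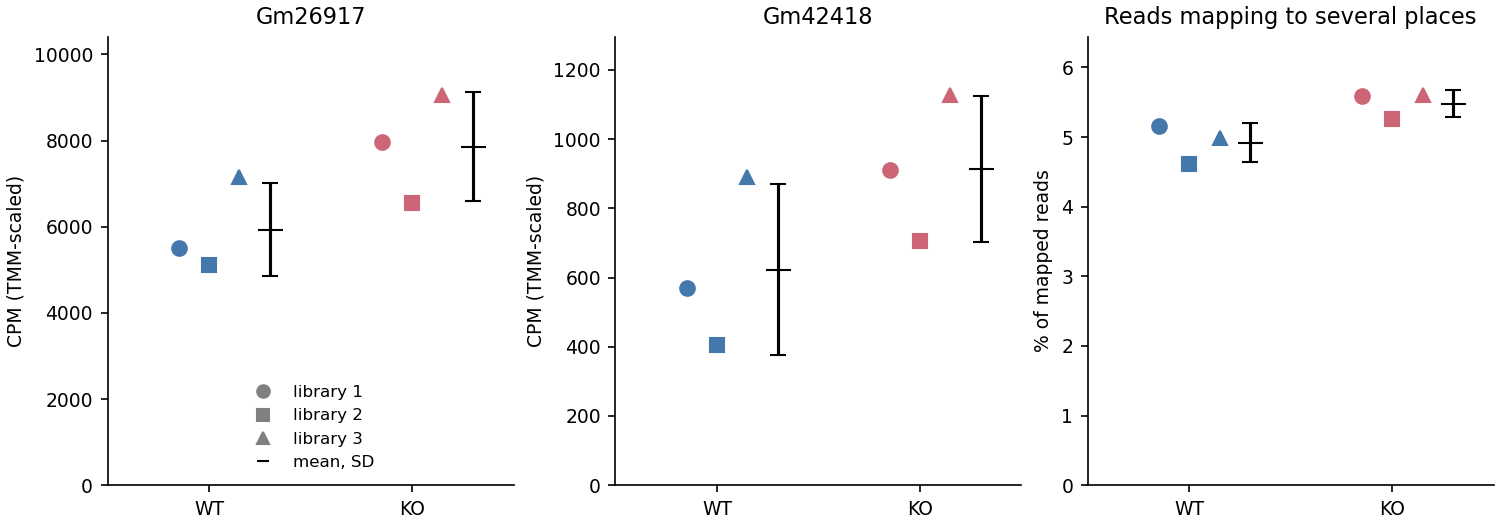
Level of Gm26917 and Gm42418 in CPM, and reads mapping to several places in percent of mapped reads, for each of the 3 WT and 3 KO libraries (marker shape gives the library number, bars the mean and SD). The groups overlap for both features, from 5115 to 7151 CPM in WT against 6542 to 9052 CPM in KO for Gm26917, and are apart for the share of reads mapping to several places.

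Both features were chosen by this same contrast, as 2 of the 4 genes called by edgeR at an adjusted p-value under 0.05 when the replicate number enters as a block, so their difference between KO and WT is described here without a test. Mean levels of Gm26917 over 3 libraries each, with the SD, were 5925 ± 1080 CPM for WT and 7857 ± 1259 CPM for KO. Its log2 fold change, KO over WT, was 0.41 (SE 0.122), or 1.33-fold. Those of Gm42418 were 622 ± 247 CPM for WT and 915 ± 210 CPM for KO (SD, n = 3), a log2 fold change of 0.56 (SE 0.228), or 1.47-fold. Of all genes tested, 2.38% had a log2 fold change at least as high as that of Gm26917 and 1.02% one at least as high as that of Gm42418. Neither feature separated the groups, as 0 of 2 had every KO library above every WT library, against 7.46% of all genes tested, and 0 of 2 every KO library below, against 6.97%.

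The values of same-numbered libraries, which the choice of the features used, are given as a description. KO was above WT by 1.45-fold, 1.28-fold and 1.27-fold in numbers 1 to 3 for Gm26917. For Gm42418 the ratios were 1.60, 1.74 and 1.26. KO was above WT in all 3 numbers for both features, as the choice favours, and nothing is read from this beside the 15.2% of all genes tested. Libraries numbered 2 were the lowest and those numbered 3 the highest of their group for both features. The labels do not say that a number ties a KO animal to a WT animal.

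The size of the difference depended on single libraries. Without WT3, the highest of its group, the log2 fold change was 0.57 for Gm26917 and 0.91 for Gm42418. Without WT2 it was 0.31 and 0.33, and without KO3 it was 0.29 and 0.38. It was above 0 for both features whichever library was left out.

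As a share of mapped reads the features were small and precisely counted. Gm26917 held 0.239% (95% exact Clopper-Pearson interval 0.238% to 0.240%), 0.218% (0.217% to 0.219%) and 0.313% (0.311% to 0.314%) of mapped reads in WT1 to WT3. In KO1 to KO3 it held 0.353% (0.352% to 0.354%), 0.284% (0.282% to 0.285%) and 0.407% (0.406% to 0.408%). Gm42418 held between 0.0173% and 0.0390% of mapped reads in WT and between 0.0306% and 0.0506% in KO. These intervals cover counting error only, since reads without molecular identifiers are not independent molecules.

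Reads that mapped to several places were more numerous than those of both features. They made up 5.16%, 4.61% and 4.99% of mapped reads in WT1 to WT3 and 5.59%, 5.25% and 5.60% in KO1 to KO3. Every KO library was above every WT library, and KO3 was the highest and WT2 the lowest, as for both features. Between them the order differed, since WT1 was above WT3 here and KO2 was above both. For every 100 such reads, Gm26917 and Gm42418 together had 5.11, 5.11 and 7.04 reads in WT1 to WT3 and 7.04, 5.98 and 8.17 in KO1 to KO3. These ratios overlapped between the groups. The deposited row does not say which repeats its reads come from, so the part of rRNA in it was not measured.

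Nearly all reads at the locus came from the plus strand, the strand on which the precursor reads in its usual direction. Of the counts in both stranded columns, 99.9% lay on the plus strand for Gm26917 and for Gm42418 in every library, with 125 to 203 and 12 to 27 opposite-strand counts per library. GENCODE M21 also annotates features on the minus strand here. CT010467.1 (ENSMUSG00000106106.2), of gene type rRNA, spans chr17:39846353-39848827, and AY036118 (ENSMUSG00000105361.1), a lincRNA, spans chr17:39847113-39848035. On its own strand CT010467.1 had 31, 13 and 23 counts in WT1 to WT3 and 27, 20 and 35 in KO1 to KO3. AY036118 lies wholly inside CT010467.1 and had 0 counts in all 3 columns of every library, because a read in both features is assigned to neither.

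Overlap also set what could be counted for Gm42418. All of it lies under CT010467.1, and in the column counted without regard to strand Gm42418 had 0 counts in every library, where the stranded column gave 12722 to 40722. Gm26917, which overlaps no other feature, kept 160285 to 326629 counts without regard to strand. A level of Gm42418 taken from unstranded counts with this annotation would therefore be 0 in both genotypes. The minus-strand annotation at the same place is what the counting reads as ambiguous.

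The 3 columns together show where along the locus the reads lay, if each read counts for every feature it overlaps and is dropped where it overlaps more than 1. Gm26917 had 60.2, 48.2 and 70.7 reads per base in WT1 to WT3 and 83.3, 66.2 and 98.3 in KO1 to KO3. Reads of Gm42418 that did not touch AY036118, over 908 bases at both ends of the feature, came to 19.8, 12.6 and 29.4 per base in WT and 32.9, 23.9 and 41.2 per base in KO. The rest of the CT010467.1 span, 644 bases that lie mostly at the start of the 18S copy, had 10.7, 5.67 and 12.1 reads per base in WT1 to WT3 and 8.91, 9.47 and 15.8 in KO1 to KO3. Coverage by reads that mapped to 1 place thus dropped from Gm26917 into the 18S copy. Reads of Gm42418 that touched AY036118, 923 bases in the interior of the 18S copy, came to only 2.99, 1.41 and 2.90 per base in WT and 1.88, 2.22 and 3.60 per base in KO. These are raw counts per base, not scaled for depth, so they compare stretches within a library. By these counts Gm26917 was the most densely covered stretch and the 18S interior the least densely covered in all 6 libraries. Reads that mapped to several places are in none of these counts. The values therefore do not measure how much RNA of each stretch the libraries held.

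Within each library, reads touching AY036118 can be set against all reads of Gm42418, which needs no scaling for depth. The share of the reads of Gm42418 that touched AY036118 was 13.3%, 10.2% and 9.11% in WT1 to WT3 and 5.49%, 8.64% and 8.15% in KO1 to KO3. This share has the count the features were chosen on as its denominator. Reads touching AY036118 numbered 2762, 1301 and 2675 in WT1 to WT3 and 1736, 2053 and 3320 in KO1 to KO3, and overlapped between the groups. The reads that did not touch it overlapped as well, and the difference in shares, noticed in these values, was not tested.

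Some reads ran from Gm26917 across its end into the 18S copy. They numbered 362, 182 and 560 in WT1 to WT3 and 517, 391 and 760 in KO1 to KO3. For every 1000 reads of Gm26917 this was 1.81, 1.14 and 2.38 in WT and 1.86, 1.78 and 2.32 in KO. The rate was lowest in WT2 and highest in WT3, and the groups overlapped.

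**Figure D2:**
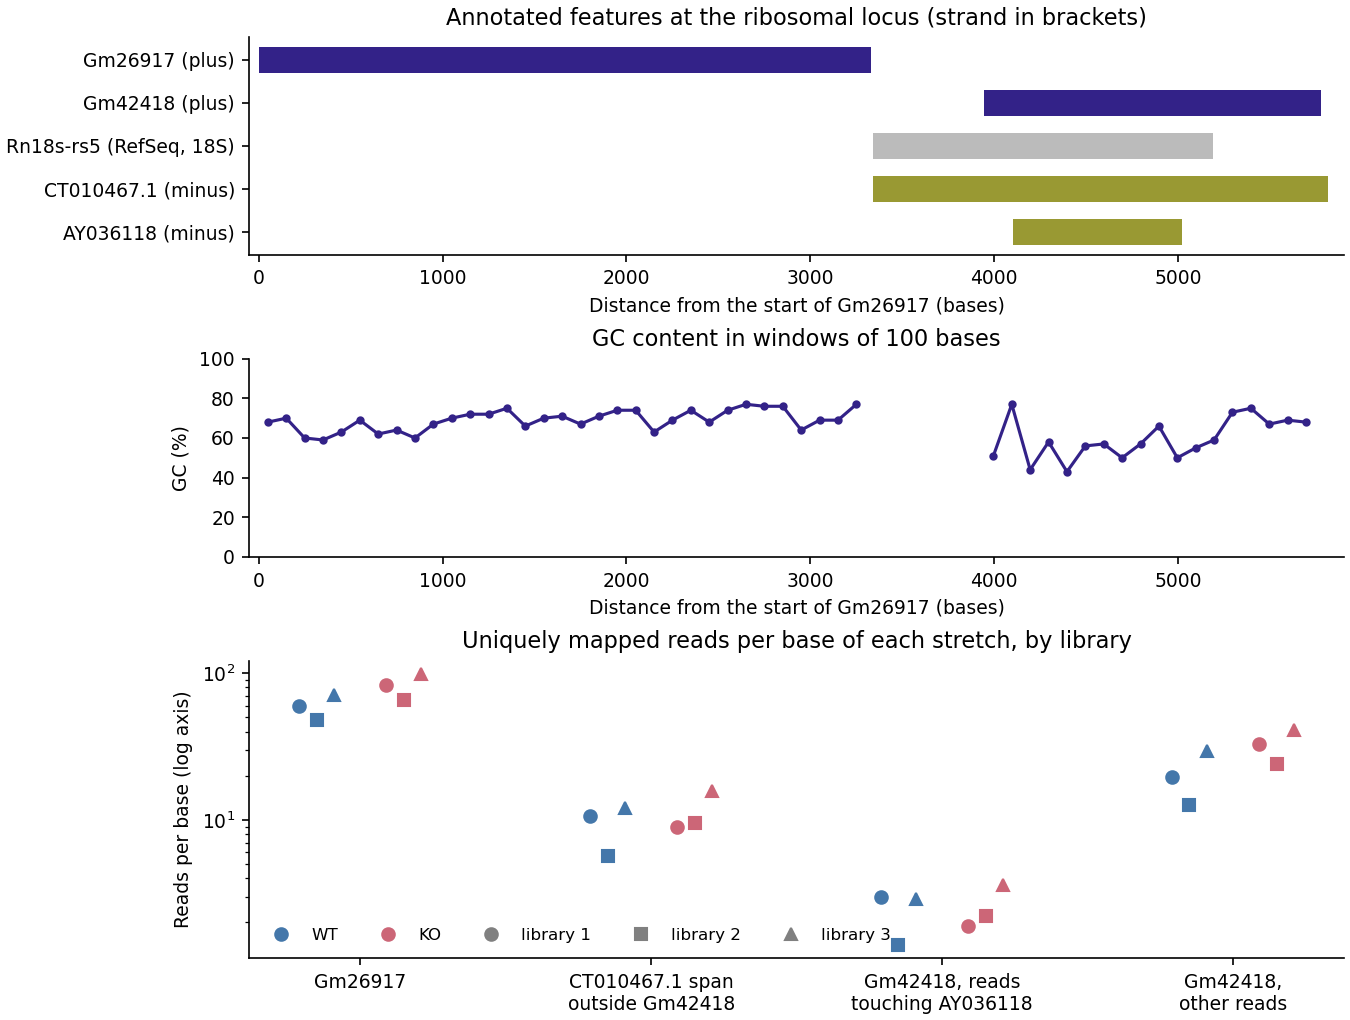
Features at the locus by distance in bases from the start of Gm26917, and GC content in percent in windows of 100 bases of both features. Below, uniquely mapped reads per base on a log axis in each library for 4 stretches (3 WT and 3 KO libraries), without reads that mapped to several places. Gm26917 lies before the 18S copy and Gm42418 over its end, and the fewest reads per base, 1.41 to 3.60, are those touching AY036118.

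Mitochondrial rRNA comes from another genome and another polymerase, and was counted by genes the choice of the features did not use. The level of mt-Rnr2, the large mitochondrial rRNA, was 2438, 1744 and 1932 CPM in WT1 to WT3 and 2001, 1722 and 2164 CPM in KO1 to KO3. It was highest in WT1, which was second to last for both nuclear features. Its log2 fold change was -0.05 (SE 0.107), and it did not pass the test (quasi-likelihood test of edgeR, adjusted by Benjamini-Hochberg over all genes, adjusted p = 0.925). For mt-Rnr1, the small mitochondrial rRNA, the level was 91.2, 75.7 and 55.9 CPM in WT and 61.2, 56.9 and 69.2 CPM in KO. Its log2 fold change was -0.25 (SE 0.137, edgeR adjusted p = 0.675), with groups that overlapped. Single libraries moved both values: mt-Rnr1 had -0.07 without WT1, -0.42 without WT3 and -0.15 with GC correction, and mt-Rnr2 turned to 0.095 without WT1. Across all genes 0.00942% had an adjusted p-value under 0.05. The difference between the changes of the mitochondrial and the nuclear features was not tested.

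Genes of type rRNA include many copies of 5S rRNA, the ribosomal RNA made by RNA polymerase III, which is shorter than the 200 bp limit of the size selection. Of the 354 such genes, 108 had at least 1 count in some library and 26 passed the filter. None of the 26 had an adjusted p-value under 0.05 in the edgeR test, while 0 had an unadjusted p-value under 0.05 and were higher in KO and 1 was lower. Of all genes tested, 4.54% were higher and 3.38% lower by that threshold. The highest level was that of Gm23956, with 47, 42 and 54 counts in WT1 to WT3 and 33, 54 and 26 in KO1 to KO3. All 354 together held 658 to 706 counts in WT and 668 to 708 in KO, far below the counts of Gm26917, Gm42418 and mt-Rnr2 in every library.

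Genes that transcribe ribosomal DNA were set beside the features. All 21 listed genes of RNA polymerase I and its initiation and termination factors passed the filter. None had an adjusted p-value under 0.05, and 2 were higher and 0 lower at an unadjusted p-value under 0.05, against 4.54% and 3.38% of all genes (7.92% together). Their median log2 fold change was 0.05, where all genes had a median of 0.00013, and 16 of 21 were above 0, against 50.1% of all genes. Polr1a, the largest subunit of RNA polymerase I, had 53.8, 54.2 and 51.4 CPM in WT1 to WT3 and 62.6, 60.1 and 57.7 CPM in KO1 to KO3. Its levels differed by a log2 fold change of 0.18 with SE 0.0523 (edgeR adjusted p = 0.576). Ubtf, which binds the ribosomal DNA promoter and keeps the repeats open, had 108, 106 and 111 CPM in WT and 114, 129 and 116 CPM in KO, a log2 difference of 0.14 with SE 0.0549 (edgeR adjusted p = 0.600). Without KO2 the value for Ubtf was 0.08, and with the replicate block and GC correction 0.093. In these 2 genes every KO library lay above every WT library, and in 1 of the 21, Twistnb, a subunit of RNA polymerase I, every KO library lay below (log2 fold change -0.06, SE 0.0647), against 7.46% and 6.97% of all genes. Rrn3, which brings the polymerase to the promoter, showed a log2 difference of 0.05 (SE 0.0513).

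Of the genes that cut, modify and assemble the precursor, all 40 listed were tested, none had an adjusted p-value under 0.05, and 2 were higher and 0 lower at an unadjusted p-value under 0.05, against 4.54% and 3.38% of all genes. Their median log2 fold change was 0.03, and 27 of 40 were above 0, against 50.1% of all genes. Nolc1, a nucleolar chaperone of small nucleolar RNPs, had 41.9, 42.4 and 41.4 CPM in WT1 to WT3 and 45.9, 48.2 and 45.2 CPM in KO1 to KO3, with a log2 difference of 0.15 with SE 0.0518 (edgeR adjusted p = 0.579). Bop1, of the complex that matures the large subunit's RNAs, had 29.8, 29.3 and 28.9 CPM in WT and 33.3, 34.1 and 30.5 CPM in KO, a log2 difference of 0.15 with SE 0.0605 (edgeR adjusted p = 0.600). With GC correction the value for Bop1 was 0.067. In both genes every KO library lay above every WT library, as in 5 of the 40 genes, with 0 of 40 the reverse, against 7.46% and 6.97% of all genes. The other 3 were Exosc10, Rrs1 and Utp20. Fbl, the methyltransferase of box C/D small nucleolar RNPs, differed by 0.06 on the log2 scale (SE 0.0780), and Dkc1, the pseudouridine synthase of the box H/ACA class, one of -0.0046 (SE 0.0646).

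Noncoding RNAs of RNA polymerase III were set beside the features. Of 7 listed, 4 passed the filter, with 0 adjusted p-values under 0.05. At an unadjusted p-value under 0.05, 2 were higher and 0 lower in KO, against 4.54% and 3.38% of all genes. Rn7sk, the 7SK RNA that holds the elongation kinase P-TEFb inactive, had 14251, 12370 and 13654 CPM in WT1 to WT3 and 15647, 16560 and 15941 CPM in KO1 to KO3. Its log2 difference was 0.26 with SE 0.0480 (edgeR adjusted p = 0.542). Every KO library was above every WT library, as in 1 of the 4 genes tested, with 0 the reverse, against 7.46% and 6.97% of all genes. However, KO2, the lowest of the KO libraries for both ribosomal features, was the highest for Rn7sk. Rn7s2, a gene of the signal recognition particle's RNA with a near-identical copy in Rn7s1, had 4.89 to 8.11 CPM in WT and 7.72 to 9.50 CPM in KO, which overlap (log2 fold change 0.43, SE 0.169, edgeR adjusted p = 0.600). Without WT1 the log2 fold change of Rn7s2 was 0.68, and without WT3 it was 0.29. With GC correction that of Rn7sk was 0.17. The Y RNA genes Rny1 and Rny3 had log2 fold changes of -0.61 (SE 0.313, edgeR adjusted p = 0.651) and -0.24 (SE 0.325, edgeR adjusted p = 0.877).

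**Figure D3:**
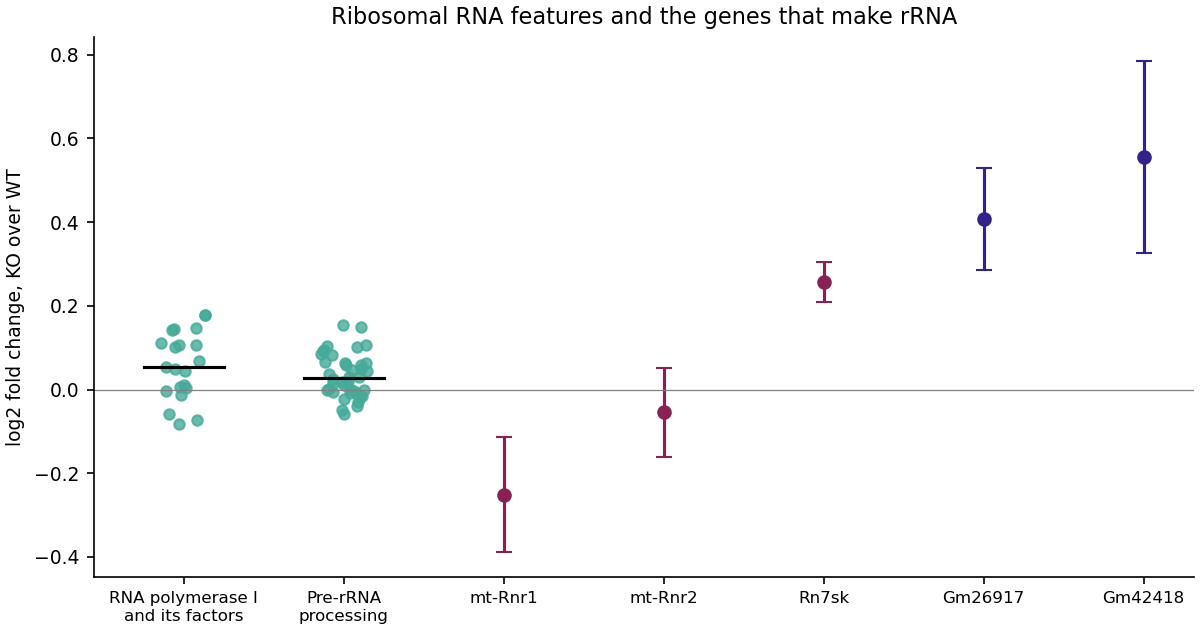
log2 fold change, KO over WT, of 21 genes of RNA polymerase I and its factors and 40 genes of pre-rRNA processing (points, with a line at the median), and of mt-Rnr1, mt-Rnr2, Rn7sk, Gm26917 and Gm42418 with their SE. Pathway genes lie between -0.08 and 0.18. Gm26917 and Gm42418, at 0.41 and 0.56, were chosen by this same contrast, so nothing is read from their distance to the pathway genes.

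Genes that followed the features most closely over the 6 libraries were found by the correlation of log2(CPM + 1) among 10644 genes with a mean of at least 10 CPM. Gm26917 and Gm42418 correlated with each other at r = 0.97. For Gm26917 the closest genes were Rps7, a protein of the small ribosomal subunit (r = 0.99), Keap1, the sensor that controls NRF2, and Sbds, a ribosome maturation factor (both r = 0.98), then BC003965 and Irf2bpl (both r = 0.97). For Gm42418 they were Uqcrq, a subunit of respiratory complex III, Ap3m2, an adaptor protein of vesicle traffic, and Keap1 (each r = 0.99), then Rpl17, of the large ribosomal subunit, and Hsd17b10, a mitochondrial dehydrogenase (both r = 0.99). In all, 18 and 25 genes reached r = 0.95. The 6 points are 3 WT and 3 KO libraries scaled together, so a difference between the genotypes enters each r, and the values are a description only.

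The log2 fold changes of the 9 genes named here were between 0.05 and 0.29, where the features, chosen by this contrast, had 0.41 and 0.56. Rps7 had 82.9, 81.5 and 88.5 CPM in WT1 to WT3 and 93.1, 88.1 and 94.7 CPM in KO1 to KO3. Uqcrq had 28.4, 26.7 and 31.5 CPM in WT and 31.9, 29.9 and 32.5 CPM in KO. Their log2 fold changes were 0.12 (SE 0.0514) and 0.13 (SE 0.0702). The highest was that of Irf2bpl, 0.29 (SE 0.0992), which lay within 1 SE of that of Gm26917 (SE 0.122).

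Counts in genes lay between 31201119 and 36145961 per library, of 78341827 to 89979690 reads. Counts of Trmt1l, the targeted gene, were 1279, 1034 and 1158 for WT1 to WT3 against 93, 101 and 106 for KO1 to KO3, on the side each label gives. The 15 brain markers were all expressed, and their summed level was 11613 to 11674 CPM in WT and 10563 to 11554 CPM in KO. The 14 markers of other tissues, led by the choroid plexus gene Ttr and the haemoglobins, summed to 374 to 453 CPM in WT and 475 to 615 CPM in KO, with Umod and Prl at 0 in every library. Both sums were apart between the groups, as the shares of multimapping reads were, and their part in the levels of Gm26917 and Gm42418 was not tested. In whole tissue, fewer cells of a type and less RNA per cell cannot be told apart. Gm26917 and Gm42418 together took 0.555% to 0.801% of counts in genes in WT and 0.713% to 1.02% in KO. Leaving them and the overlapping features out of the scaling shifted the log2 difference of the median gene from 0.00013 to 0.00023.

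**Figure D4:**
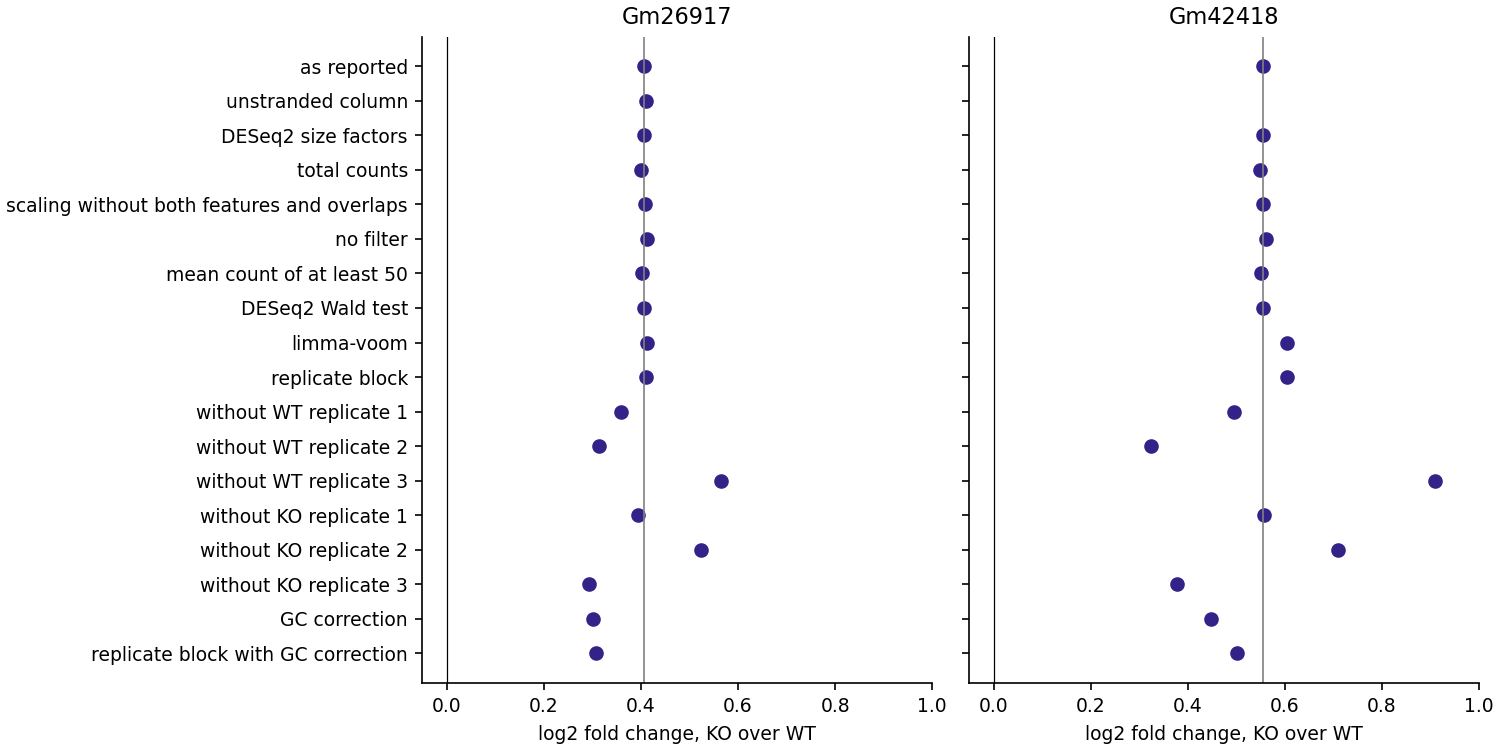
log2 fold change, KO over WT, of Gm26917 and Gm42418 under each way of processing (points; the grey line marks the value reported in the text). Values stay above 0, from 0.29 to 0.57 for Gm26917 and from 0.33 to 0.91 for Gm42418, and move most when a library is left out.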

How the data were processed

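Long RNA of whole mouse brain was measured in 3 WT and 3 KO libraries. The authors deposited 1 table of whole-number read counts per library, not normalized, in the layout of STAR's gene counts. Per the submitters' processing notes, cutadapt 1.9.1 and STAR 2.7.0f were used; build and annotation are not given in the sources used here. The 55450 gene identifiers of the deposited tables are exactly those of GENCODE M21 (GRCm38), which supplied names, positions and transcripts. Reads mapping to several places or falling in several genes are not assigned to a gene. A stranded column was used if it held at least 80% of stranded counts in every library; the last column held 94.6% to 94.8%.

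Counts were analysed in R 4.3.3 with edgeR 4.0.16 (filterByExpr, TMM factors, quasi-likelihood test, genotype as sole factor, all 6 libraries, Benjamini-Hochberg adjustment over 21237 genes), after a test on simulated data. In it 5.5% of genes with a simulated log2 fold change of 0.25 were recovered, and 46.5% at 0.5. Of the calls, 35.3% and 10.6% were false. Changes as small as those of the listed genes would thus mostly be missed. The SE is the log2 fold change divided by the square root of F. Mapped reads are all but the unmapped. Sequences were aligned with BLAST 2.17.0. Reads per stretch were derived from the 3 columns: reads crossing from Gm26917 into CT010467.1 are the sum of both stranded counts of Gm26917 less its unstranded count, and reads of Gm42418 outside AY036118 are the opposite-strand counts of CT010467.1 less its unstranded counts and those crossing reads. Fragments that reach from Gm26917 into Gm42418 would be added to the latter.

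The features and gene lists were chosen with earlier results of these data known. The rule for named genes took both features, Trmt1l, the mitochondrial rRNAs, all overlapping features, up to 5 genes of type rRNA by level (the highest is given), list genes with an unadjusted p-value under 0.05, RNA polymerase III RNAs of at least 1 CPM, and the 5 genes most alike to each feature. Fbl, Dkc1 and Rrn3 were named for their roles, and Twistnb, Exosc10, Rrs1 and Utp20 for their groups not overlapping, after their values were seen. The labels call the libraries biological triplicates without naming animals, so p-values measure the spread between libraries. Alternatives were the unstranded column, other scalings and filters, DESeq2 1.42.0, limma-voom (limma 3.58.1), the replicate block, GC correction and leaving out each library.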

Additional observations from a re-analysis of the deposited data

How the results depend on the processing

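The log2 fold change of Gm26917 lay between 0.29 and 0.57 over 17 alternatives and that of Gm42418 between 0.33 and 0.91 over 16, above 0 in each. Gm42418 had no value with the unstranded column, where its counts were 0. GC correction, chosen after seeing the data like its combination with the block, gave 0.30 and 0.45. The ratio of KO to WT in the share of mapped reads lay between 1.24 and 1.52 for Gm26917, 1.27 and 1.93 for Gm42418, and 1.08 and 1.14 for reads mapping to several places, over the other denominators, the unstranded column where it gave a value, and each library left out.

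The 2 genes with an adjusted p-value under 0.05, Trmt1l and Gm37893, were also the calls under the unstranded column, both other scalings, scaling without the features, a mean count of at least 50, limma-voom and GC correction. Without a filter on low counts 298 genes passed, both features, mt-Rnr1, Rn7sk and Rn7s2 among them. The DESeq2 Wald test gave 26, with Rn7sk (adjusted p = 0.0031) but neither feature among them, and gave Trmt1l no adjusted p. The cause of these differences was not tested. With each library left out in turn, 2 to 5 genes passed (5 without KO3), neither feature among them. The replicate block gave 4 genes, the same 2 and both features, with log2 fold changes of 0.41 for Gm26917 and 0.60 for Gm42418. The replicate block with GC correction gave 2 genes, Trmt1l and Gm37893, and neither feature. The changes of the features were 0.31 and 0.50 there. Across genes, the correlation of same-numbered deviations was 0.040, -0.031 and -0.058. With 3 libraries per group, such values cannot show whether a number ties libraries together, and the labels do not say.

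At an unadjusted p-value under 0.05, GC correction and the replicate block with GC correction each left 1 RNA polymerase I gene, and the replicate block with GC correction left 1 processing gene. With a library left out, 1 to 3 and 1 to 2 genes passed. The change of mt-Rnr2 turned to 0.049 with GC correction, to 0.058 with the replicate block and GC correction, to 0.095 without WT1 and to 0.031 without KO2. It lay between -0.15 and 0.095 over the libraries left out.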
